A study of Arabidopsis thaliana with 6 samples.

Results

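The UGT genes of Arabidopsis encode UDP-glycosyltransferases, enzymes that move a sugar from a UDP-sugar onto a small acceptor molecule. Their transcripts were described here in root tips 1 h after red light. Members were all probe sets that the platform annotation assigned to exactly 1 gene whose symbol starts with UGT and a digit, with UGT78D2 left out. This gave 46 genes with 1 probe set each, out of 22746 probe sets that are not controls. The platform annotation named exactly 1 gene for 13513 of those. The members carried UGT group numbers 71, 72, 73, 74, 76, 78, 80, 84, 85, 87 and 88. All 46 probe sets have names without the marks that Affymetrix gives to probe sets shared between transcripts.

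The tissue was the terminal 1 cm of roots of 7-day-old seedlings, grown in continuous darkness at 23 °C on agar with sucrose. In the red light group, seedlings then received 1 h of red light with a peak at 630 nm and 12 to 14 µmol per square metre and second. The dark group was kept in darkness for that 1 h. No mutant, transgene or accession was named in the labels. Biological replicates numbered 3 in each group by the labels, and the root tips of several plates were pooled for each array.

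Family members share a conserved stretch near the C-terminus that binds the UDP-sugar, while the N-terminal part differs and sets the acceptor. In plants, adding a sugar commonly makes a hormone or defence compound soluble and inactive, or readies a phenylpropanoid for storage or transport. In roots, UGTs are known for acting on auxin, cytokinin, abscisic acid, salicylic acid, monolignols and glucosinolate precursors. The comparison asks which of these conjugating enzymes differ in transcript level within 1 h of red light. In whole root tips, fewer cells that express a gene and less RNA per cell cannot be told apart.

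The arrays fell into 2 classes that cross the treatment. The ratio of the GAPDH control signal at the 3' end to that at the 5' end lay between 20.2 and 26.2 in red light 1, dark 1 and dark 3 (the high-ratio class). It lay between 0.981 and 1.45 in red light 2, red light 3 and dark 2 (the low-ratio class). The high-ratio class thus held 1 of 3 red light arrays and 2 of 3 dark arrays. Of 9 root hair markers listed, 3 had a named probe set, EXPA7, EXPA18 and XTH26, and their summed signal ran from 474.3 to 3172.3 in red light and from 1377.3 to 3471.8 in the dark. Of 12 shoot markers (nuclear photosynthesis genes), 6 had one, with summed signals of 869 to 2744.3 in red light and 1361.1 to 2544.2 in the dark. No root tip meristem or cap marker, of 9 listed, had one, so that part of the label was not checked. None of the 9 tested markers passed the test between red light and dark in either fit given below.

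Of the 46 UGT genes, 25 had a mean signal (geometric mean over the 6 arrays) above 88, which is 54.3%. Among all probe sets with exactly 1 gene the share was 54.6%, and among all that are not controls 60.1%. The brightness filter of the test lay at 88.4 and kept the same number, 25. Below 88, 21 genes had mean signals from 3.52 to 85.1, and for 12 of them the mean was under 20. A signal depends on the probes as well as on the RNA, so signals of different genes are not amounts to set against each other.

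**Figure D1:**
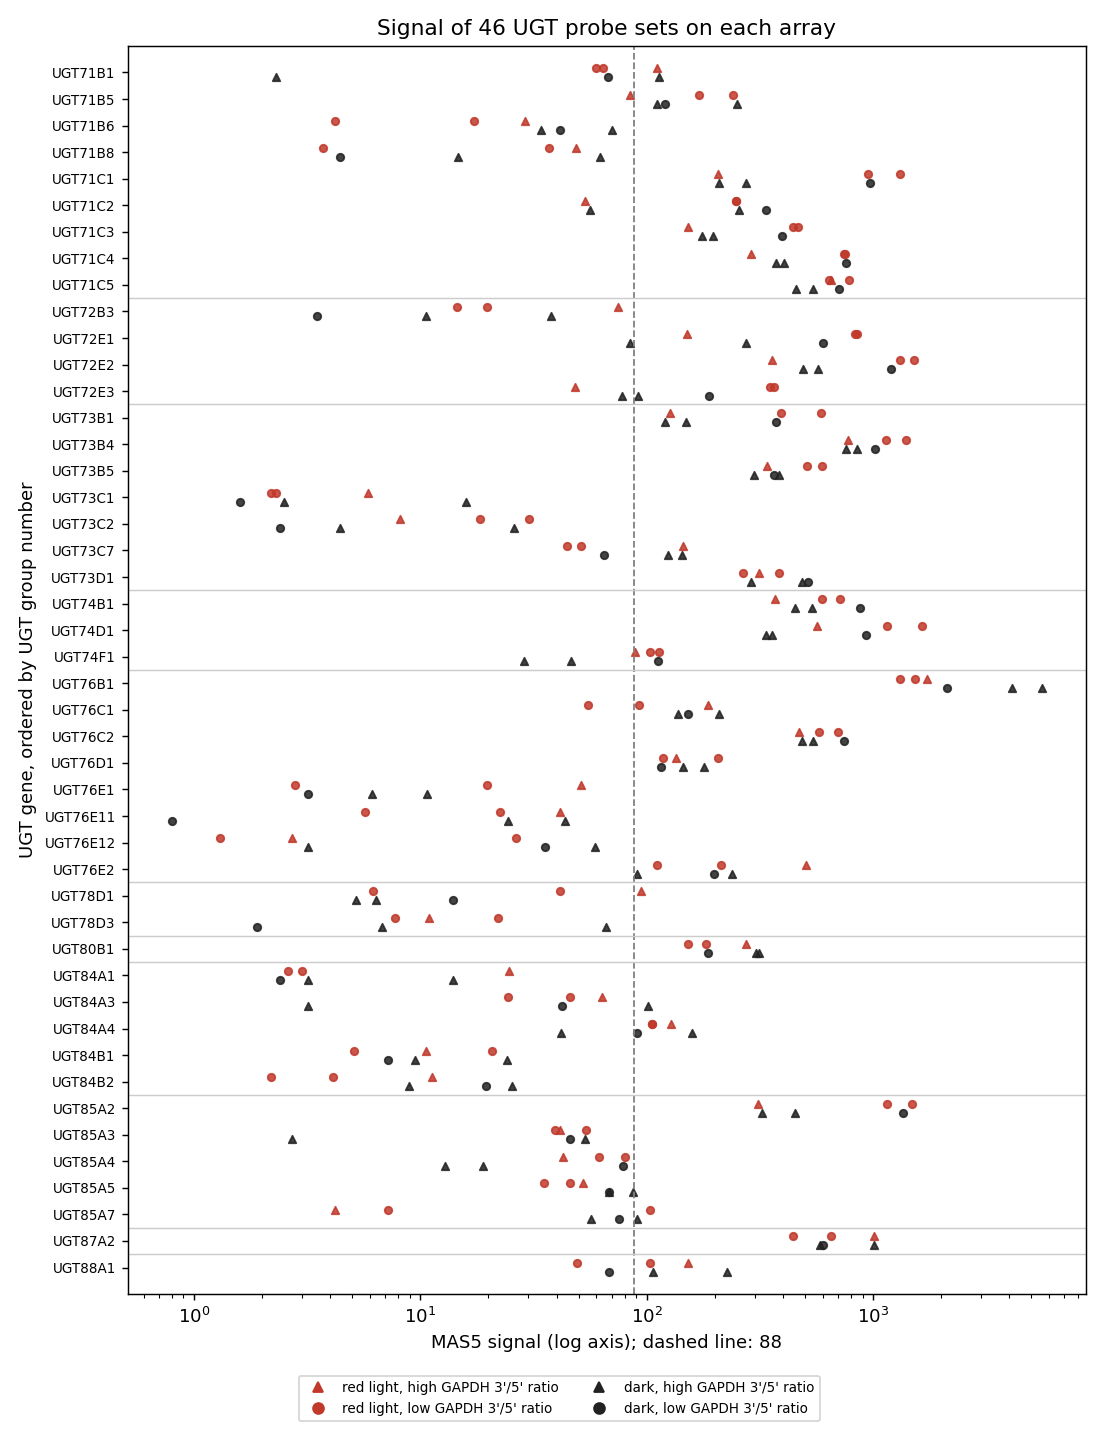
MAS5 signal (log axis) of each of the 46 UGT probe sets on the 6 arrays, ordered by UGT group number, with red light in red above dark in black and array class as the marker. Groups 71 to 74 and 76 hold most genes right of the dashed line at 88, and the genes left of it scatter widely between arrays.

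By group number, 6 of 9 UGT71 genes, 3 of 4 UGT72 genes, 4 of 7 UGT73 genes, 2 of 3 UGT74 genes and 5 of 8 UGT76 genes were above 88. Neither UGT78 gene was. Among the 5 UGT84 genes only UGT84A4 was, and among the 5 UGT85 genes only UGT85A2. The single members of groups 80, 87 and 88, UGT80B1, UGT87A2 and UGT88A1, all were.

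Many UGT genes lie side by side in the genome. In the RefSeq gene order (TAIR10.1, used for order only), 29 of the 46 lay in 12 runs. In a run each member was at most 3 protein-coding genes from the next. The other 17 had no other member that near, and UGT genes that are not members were not counted. In 4 runs every member was above 88, namely UGT71C5, UGT71C4 and UGT71C3, then UGT71C2 and UGT71C1, then UGT73B5 and UGT73B4, and UGT76C2 and UGT76C1. In 4 runs none was, namely UGT71B1, UGT71B6 and UGT71B8, then UGT73C1 and UGT73C2, then UGT76E12 and UGT76E11, and UGT84B2 and UGT84B1. The other 4 runs were mixed. In the run of 4 UGT85A genes, UGT85A2 was above 88, and UGT85A3, UGT85A5 and UGT85A7 were below it.

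No UGT gene passed the test between red light and dark. With group as the only term, limma called 0 of the 25 tested UGT genes, and 0 of all 13647 tested probe sets (0.00%). An unadjusted p under 0.05 was reached by 1 of 25 UGT genes, against 1.89% of all tested probe sets. With array class as a second term, limma again called 0 of 25, against 17 of 13647 (0.125%; 0.0806% with red light higher and 0.0440% with it lower). In that fit 2 of 25 had an unadjusted p under 0.05, against 6.88% of all.

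The median change of the 25 genes was 0.30 on the log2 scale with group alone, beside -0.015 over all tested probe sets, and 16 of the 25 lay above 0. The median rested on single arrays: leaving out red light 2 gave 0.066, red light 3 0.088, dark 3 0.13, dark 1 0.17, and either red light 1 or dark 2 0.44 (25 or 26 genes tested). It was 0.26 after scaling to the 75th percentile and 0.18 after quantile scaling. With array class in the fit the median was -0.0054, beside -0.030 over all tested probe sets, and 12 of 25 lay above 0. The median standard error of a UGT change was 0.51 with group alone and 0.27 with array class. In the fit by group alone, 2 of 25 had a change over 1 in size, UGT76B1 and UGT74D1, against 3.05% of all tested probe sets. With array class only UGT76B1 did, against 2.42%.

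**Figure D2:**
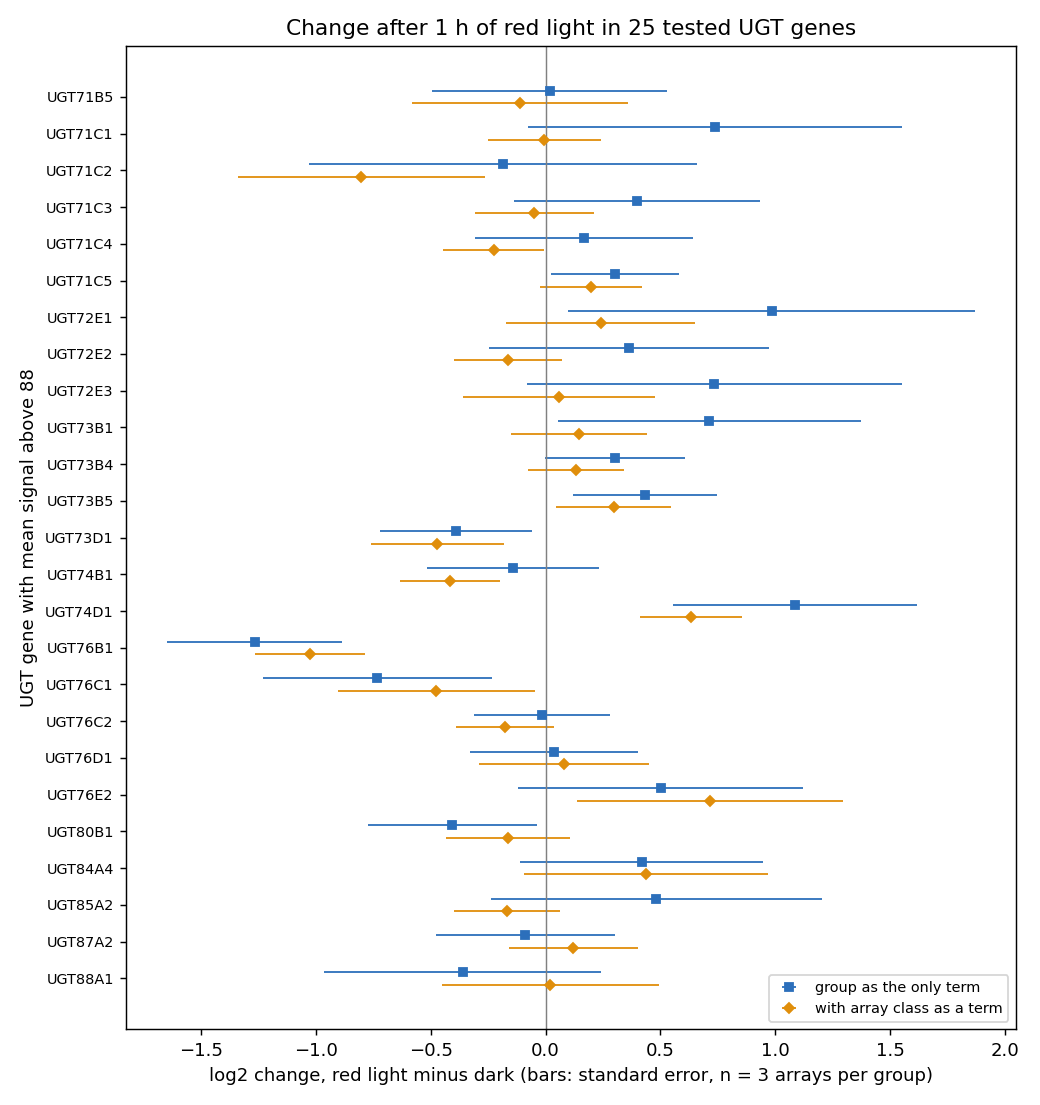
Change in log2 signal, red light minus dark, of the 25 tested UGT genes with its standard error (3 arrays per group), with group as the only term (blue squares) and with array class added (orange diamonds). UGT76B1 lies lowest in both fits, at -1.27 and -1.02, and many of the squares right of 0 have a diamond near 0.

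UGT76B1 (AT3G11340) conjugates isoleucic acid and the immune signals salicylic acid and N-hydroxypipecolic acid, and it had the highest mean signal of the 46, 2353. Its signals were 1732.6, 1537.1 and 1311.1 in red light 1, 2 and 3, against 5572.4, 2127.8 and 4101.2 in dark 1, 2 and 3. Every red light array was thus below every dark array. UGT76B1 was the only tested member whose groups did not overlap (1 of 25), where 6.16% of all tested probe sets did not overlap, 3.93% with red light lower. Its change was -1.27 (SE 0.38, 0.416-fold, limma adjusted p = 0.999) with group alone, and -1.02 (SE 0.24, limma adjusted p = 0.228) with array class. Within the high-ratio class it was -1.46 and within the low-ratio class -0.58. UGT76B1 also differed between the classes, being higher in the high-ratio class by 0.73 (SE 0.24, limma adjusted p = 0.0343). Dark 2 is the only dark array of the low-ratio class, so leaving it out of the fit by group and class gives that same -1.46, from 1 red light array against 2 dark arrays. Its limma adjusted p of 0.0141 assumes that the lone red light array varies like the others. Over all alternatives of that fit the limma adjusted p ran from 0.0141 to 0.904.

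UGT74D1 (AT2G31750) conjugates auxins, among them the oxidised form of indole-3-acetic acid, and had the largest change above 0. It gave signals of 567.8, 1639.4 and 1153.8 in red light, against 336.7, 935.2 and 358.0 in the dark. Red light 1, at 567.8, lay below dark 2, so the groups overlapped. Its change was 1.08 (SE 0.53, 2.12-fold, limma adjusted p = 0.999) with group alone, and 0.63 (SE 0.22, limma adjusted p = 0.614) with array class. Among high-ratio arrays alone the value was 0.71, and among low-ratio arrays 0.56. UGT74D1 was itself lower in the high-ratio class (difference -1.35, SE 0.22, limma adjusted p = 0.00109).

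The other auxin-conjugating members were dim. UGT84B1, which forms the glucose ester of indole-3-acetic acid, had signals of 10.6, 20.7 and 5.1 in red light and 24.2, 7.2 and 9.5 in the dark. Its neighbour UGT84B2 had 11.3, 2.2 and 4.1 in red light and 25.5, 19.5 and 8.9 in the dark. The groups overlapped in both, and neither passed the brightness filter.

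Cytokinins are inactivated by N-glucosylation through UGT76C1 and UGT76C2, whose genes are neighbours. UGT76C2 (AT5G05860) had signals of 471.8, 698.2 and 574.8 in red light, against 545.4, 743.1 and 483.9 in the dark, a change of -0.017 (SE 0.30) with group alone and -0.18 (SE 0.21) with array class. It had the smallest spread of all members, with its brightest array 1.58 times its dimmest. UGT76C1 (AT5G05870) had 186.4, 54.9 and 92.3 in red light, against 208.0, 151.5 and 137.8 in the dark. Its change was -0.73 (SE 0.50) with group alone, 0.14 within the high-ratio class and -1.09 within the low-ratio class. UGT73C1, which O-glucosylates zeatin in vitro, was the dimmest member, with 5.9, 2.2 and 2.3 in red light and 2.5, 1.6 and 15.9 in the dark. None of the 24 cytokinin turnover genes listed (CKX, IPT and LOG) had a named probe set.

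Abscisic acid is glucosylated by UGT71C5 and UGT71B6. UGT71C5 (AT1G07240) had signals of 652.2, 785.7 and 641.9 in red light, against 542.8, 708.2 and 455.4 in the dark. Its change of 0.30 (SE 0.28) became 0.20 (SE 0.22) with array class, and it stayed above 0 in every alternative of both fits. UGT71B6 was dim, with 29.1, 17.2 and 4.2 in red light, against 34.1, 41.5 and 70.0 in the dark. Those groups did not overlap, as for 7.45% of the probe sets under the filter (4.88% with red light lower), and without the filter its change was -1.85 (SE 1.00, limma adjusted p = 0.999).

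Salicylic acid and related benzoates are acceptors of UGT74F1 and UGT76D1. UGT74F1 (AT2G43840) had signals of 88.9, 103.9 and 112.8 in red light, against 46.2, 112.6 and 28.7 in the dark, with dark 2 as high as the red light arrays. Its mean of 73.3 lay just below 88. UGT76D1, which acts on dihydroxybenzoic acids, had 134.4, 118.1 and 206.3 in red light, against 179.3, 116.2 and 145.4 in the dark. Its change of 0.037 (SE 0.37) was among the smallest of the tested members. UGT71C3, which acts on methyl salicylate, had 151.8, 442.4 and 465.8 in red light, against 195.9, 397.1 and 176.0 in the dark, and its change was 0.40 (SE 0.53) with group alone and -0.049 (SE 0.26) with array class.

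The UGT72E enzymes glucosylate monolignols and their aldehydes, which are lignin precursors: UGT72E1 takes mainly the aldehydes, and UGT72E2 and UGT72E3 the alcohols. UGT72E1 (AT3G50740) had signals of 151.1, 852.3 and 833.4 in red light, against 84.3, 602.4 and 273.3 in the dark. UGT72E2 (AT5G66690) had 358.3, 1523.7 and 1314.2 in red light, against 488.6, 1202.9 and 572.7 in the dark. For UGT72E3 (AT5G26310) the signals were 48.0, 365.7 and 351.5 in red light, against 91.8, 188.5 and 77.5 in the dark. In all 3 genes red light 2 and red light 3 were the brightest arrays and dark 2 the next. Their changes with group alone were 0.98 (SE 0.89), 0.36 (SE 0.61) and 0.73 (SE 0.82), and with array class 0.24 (SE 0.41), -0.16 (SE 0.24) and 0.057 (SE 0.42), in the order UGT72E1, UGT72E2 and UGT72E3. All 3 were lower in the high-ratio class, with differences of -2.23 (SE 0.41), -1.58 (SE 0.24) and -2.03 (SE 0.42), with limma adjusted p-values of 0.00287, 0.000671 and 0.00363. The part of array class in their change by group was not tested beyond that fit.

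**Figure D3:**
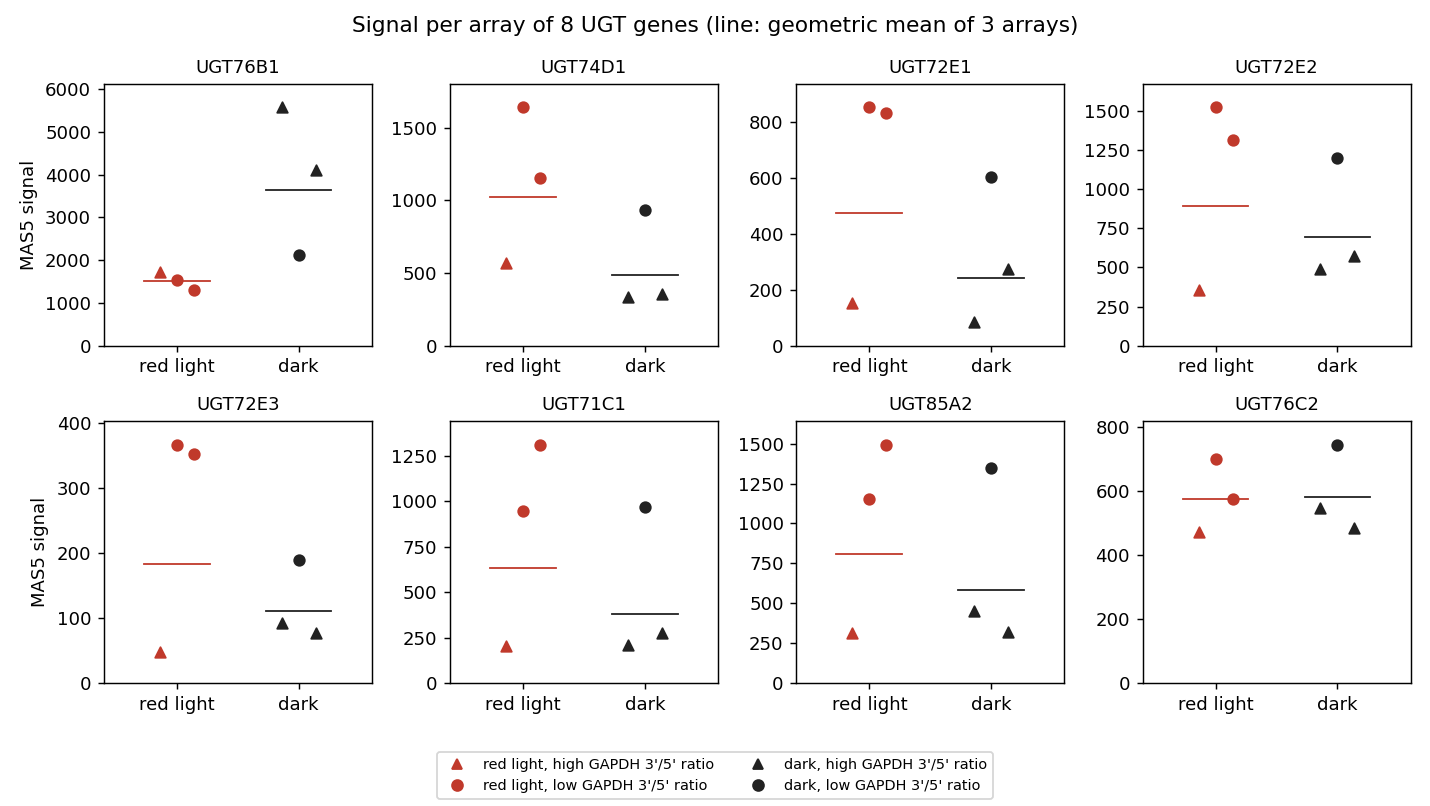
MAS5 signal per array of 8 UGT genes, each with red light left of dark, array class as the marker and a line at the geometric mean of 3 arrays. In UGT74D1, UGT72E1, UGT72E2, UGT72E3, UGT71C1, UGT85A2 and UGT76C2 the circles (low-ratio arrays) lie above the triangles (high-ratio arrays) in both groups. UGT76B1 has all of its red light arrays below all of its dark arrays.

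Hydroxycinnamic acids receive a glucose ester from UGT84A1, UGT84A3 and UGT84A4, encoded by neighbouring genes. UGT84A4 (AT4G15500), which lay just above 88 with a mean of 97.5, had signals of 128.3, 106.0 and 105.1 in red light, against 41.7, 91.0 and 158.1 in the dark. Its change was 0.42 (SE 0.53). UGT84A3 had 63.2, 46.0 and 24.5 in red light, against 3.2, 42.3 and 101.5 in the dark. UGT84A1 had 24.7, 3.0 and 2.6 in red light, against 3.2, 2.4 and 14.0 in the dark, and the groups overlapped in all 3 genes.

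The flavonol glycosyltransferases UGT78D1, a rhamnosyltransferase, and UGT78D3, an arabinosyltransferase, were both dim. UGT78D1 (AT1G30530) had signals of 94.5, 6.2 and 41.6 in red light, against 5.2, 13.9 and 6.4 in the dark. Red light 2 lay within the range of the dark arrays. UGT78D3 had 10.9, 7.7 and 22.1 in red light and 6.8, 1.9 and 65.9 in the dark. Without the filter, UGT78D1 had a change of 1.91 (SE 1.21).

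UGT74B1 (AT1G24100) adds glucose to thiohydroximates, the step before the final sulfation of the glucosinolate core. Its signals were 369.9, 597.4 and 716.9 in red light, against 452.2, 872.9 and 538.5 in the dark. The change was -0.14 (SE 0.38) with group alone and -0.42 (SE 0.22, limma adjusted p = 0.775) with array class, and it was -0.42 within both classes. None of the 14 other glucosinolate core genes listed had a named probe set.

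UGT80B1 (AT1G43620), a sterol glucosyltransferase also known as TRANSPARENT TESTA 15, had signals of 275.1, 151.8 and 183.4 in red light, against 312.8, 187.0 and 304.7 in the dark. In each class the red light arrays lay below the dark arrays, by -0.17 within the high-ratio class and -0.16 within the low-ratio class. The change was -0.41 (SE 0.37) with group alone and -0.17 (SE 0.27) with array class.

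UGT73B4 (AT2G15490) and UGT73B5 (AT2G15480), neighbours known for induction by pathogens and for acting on foreign compounds, were both bright. UGT73B4 had signals of 775.6, 1142.2 and 1394.8 in red light, against 850.4, 1015.1 and 761.5 in the dark, and a change of 0.30 (SE 0.30). UGT73B5 had 339.1, 595.7 and 510.0 in red light, against 298.2, 366.8 and 383.1 in the dark, and a change of 0.43 (SE 0.31). Red light 2 and red light 3 were the brightest arrays in both. With array class the changes were 0.13 (SE 0.21) and 0.30 (SE 0.25).

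UGT87A2 (AT2G30140), which is known for an effect on flowering time, had signals of 1011.7, 654.9 and 443.8 in red light, against 1006.1, 603.8 and 581.4 in the dark, a change of -0.088 (SE 0.39). Red light 1 and dark 1 were nearly equal. UGT73D1 (AT3G53150) had 314.5, 265.9 and 385.8 in red light, against 484.9, 515.9 and 289.9 in the dark. Its change was -0.39 (SE 0.33) with group alone and -0.47 (SE 0.29) with array class, so it lay below 0 in both. Its neighbour UGT73C7 lay just below 88 with a mean of 85.1, and had 144.2, 51.3 and 44.3 in red light and 143.7, 65.1 and 123.6 in the dark. UGT88A1, just above 88 with a mean of 104.1, had 152.2, 103.6 and 49.2 in red light and 106.5, 67.9 and 227.3 in the dark, a change of -0.36 (SE 0.60).

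The remaining tested members had changes of -0.19 to 0.74 with group alone. They were UGT71B5, UGT71C1, UGT71C2, UGT71C4, UGT73B1, UGT76E2 and UGT85A2. UGT76E2 differed most between the classes in its change, with 1.79 among high-ratio arrays, where red light 1 had 507.7, and -0.36 among low-ratio arrays. Over the 25 tested members, 12 had a change of the same sign in both classes, 4 above 0 and 8 below 0. Over all tested probe sets 48.5% had the same sign in both.

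Array class separated more UGT genes than treatment did. With group in the fit, 12 of 25 differed between the classes by limma, 48.0%, against 36.8% of all tested probe sets. In the high-ratio class 11 of the 25 were lower, against 21.9% of all, and 1 was higher, UGT76B1, against 14.9% of all. The 11 were UGT71C1, UGT71C2, UGT71C3, UGT71C4, UGT72E1, UGT72E2, UGT72E3, UGT73B1, UGT74B1, UGT74D1 and UGT85A2. The median signal of the 25 was 287.9 in red light 1, 298.2 in dark 1 and 289.9 in dark 3, but 595.7 in red light 2, 465.8 in red light 3 and 515.9 in dark 2. Over all 46 members, dim ones included, the median signal did not separate the classes, with 118.85, 91.1 and 130.7 on those high-ratio arrays and 104.95, 108.1 and 114.4 on the low-ratio arrays.

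**Figure D4:**
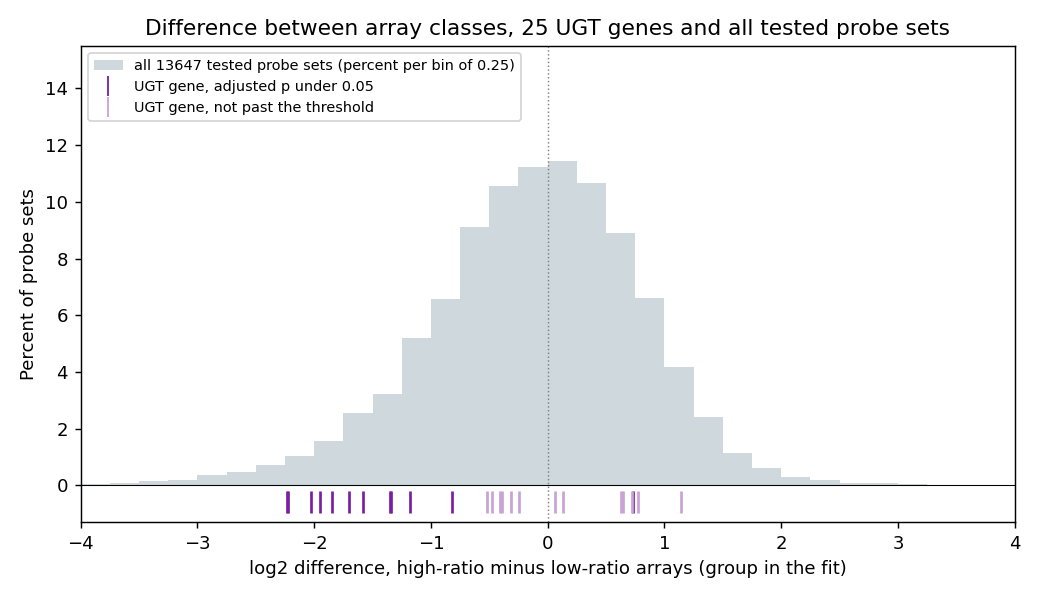
Difference in log2 signal between high-ratio and low-ratio arrays, with group in the fit, for the 25 tested UGT genes (ticks) below the distribution of all 13647 tested probe sets (bars, percent per bin; the axis ends at 4 on each side). Dark ticks passed the threshold, and 11 of those 12 lie left of 0, between -2.23 and -0.82.

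UGT71C1 (AT2G29750), which accepts phenolic compounds in vitro, had the smallest p for array class. Its signals were 206.4 in red light 1, 209.3 in dark 1 and 274.5 in dark 3, against 948.7 in red light 2, 1311.4 in red light 3 and 967.7 in dark 2. That is a difference of -2.22 (SE 0.25, limma adjusted p = 0.000164), with no overlap between the classes. Its change by red light was 0.74 (SE 0.81) with group alone and -0.0054 (SE 0.25) with array class. UGT85A2 (AT1G22360) had 311.0 in red light 1, 450.6 in dark 1 and 322.6 in dark 3, against 1153.0 in red light 2, 1492.2 in red light 3 and 1350.1 in dark 2, a difference of -1.95 (SE 0.23). For UGT73B1 (AT4G34138) the signals were 126.2, 120.3 and 148.9 on those high-ratio arrays, against 591.1, 392.3 and 371.0 on the low-ratio arrays. Both also came out near 0 for red light with array class, at -0.17 (SE 0.23) for UGT85A2 and 0.15 (SE 0.30) for UGT73B1.

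The classes did not overlap for 14 of the 25 members, against 51.0% of all tested probe sets. Among the 14 were 12 with the high-ratio class lower and 2 with it higher, against 28.5% and 22.5% of all tested probe sets. The 2 were UGT80B1 and UGT88A1. In UGT71C, the class difference was -1.34 for UGT71C3 and -1.18 for UGT71C4, but -0.32 (SE 0.22, limma adjusted p = 0.285) for their neighbour UGT71C5. Whether the 3' bias of the high-ratio arrays has a part in these differences was not tested. The root hair markers with a named probe set were lower in the high-ratio class by limma, 3 of 3, with a median of -2.47. Over all tested probe sets 21.9% were lower there. The 6 shoot markers had a median of 1.25 but did not all go one way. RCA lay at -0.15 and LHCB4.1 at -0.036. Of the 6, 2 passed, both higher in the high-ratio class, PSBW by 2.24 and PSAN by 1.37. Over all tested probe sets 14.9% passed as higher there.

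The 21 dim members varied more between arrays than the bright ones. Their brightest array was 16.9 times their dimmest in the median, with a range of 2.47 to 54.5, whereas for the 25 bright members the median ratio was 3.79, with a range of 1.58 to 10.1. Among the dim members 6 exceeded 88 on at least 1 array, and none did on all 6. Of the bright members 18 exceeded 88 on all 6. The groups did not overlap for 2 of the 21 dim members, against 7.45% of the probe sets under the filter (4.88% with red light lower). These were UGT71B6 and UGT85A5, both lower in red light. UGT85A5 had 52.3, 35.2 and 45.7 in red light, against 68.2, 68.0 and 86.8 in the dark. Fitted without the filter and by group alone, 0 of the 21 were called by limma, beside 0 of all 22746 probe sets. An unadjusted p under 0.05 was reached by 0 of the 21, and that share over all 22746 was not counted. With array class added, again 0 of the 21 were called, beside 19 of 22746. In that fit UGT85A7 had a change of -2.78 (SE 1.14, limma unadjusted p = 0.0304, adjusted p = 0.838).

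Enzymes with related roles were read from lists. GH3 proteins conjugate hormones to amino acids instead of sugars, and 3 of the 5 with a named probe set were tested, with 0 called in either fit and a median change of -0.13. Among them, GH3.3 had a change of -0.61 (SE 0.51), GH3.17 of -0.13 (SE 0.41) and WES1 of 0.068 (SE 0.59). Beta-glucosidases remove glucose again, and of 22 with a named probe set 8 were tested, 5 with a change above 0 and 3 below, with 0 called and a median of 0.10. BGLU45, which acts on monolignol glucosides, had 330.2, 451.7 and 340.1 in red light, against 243.3, 302.7 and 279.0 in the dark. Those groups did not overlap, as for 6.16% of all tested probe sets (2.23% with red light higher). The change of BGLU45 was 0.43 (SE 0.28, limma adjusted p = 0.999) with group alone and 0.36 (SE 0.25, limma adjusted p = 0.842) with array class. BGLU15 had a change of 0.39 (SE 0.32) and BGLU42 of -0.23 (SE 0.29). BGLU19, singled out after its values were seen, had 61.3, 4.2 and 3.7 in red light, against 292.9, 245.2 and 514.6 in the dark. Every red light array was below every dark array, as for 4.88% of the probe sets under the filter. The mean of 57.2 kept BGLU19 under the filter. Fitted without the filter, its change was -5.08 (SE 1.05, limma adjusted p = 0.999) with group alone and -4.31 (SE 0.79, limma adjusted p = 0.0697) with array class.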

How the data were processed

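The files hold linear intensities, which the authors deposited for every probe set of each array. MAS5 produced them, according to the submitters' processing notes. Its version and detection calls are not given in the sources used here. A single scaling factor per array gives a mean, after trimming 2% from each end, of 500.04 to 500.06. Depth has no counterpart on arrays, and 3 arrays per group limit the precision.

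The 64 control probe sets were set aside. Signals entered the fit as plain log2 values, with no pseudocount, and probe sets brighter on average than the 40th percentile, 88.4, were fitted together with limma 3.58.1 (trend and robust, statmod 1.5.0, R 4.3.3), as red light minus dark. The 2-sided p-values had a Benjamini-Hochberg adjustment over all 13647 and a threshold of 0.05. Array class was split at the widest gap in the GAPDH 3'/5' ratio. The fits were also run on data simulated with independent normal noise and planted changes, and no result above rests on that run. Labels call the samples biological replicates from pooled plates, so p-values measure the spread between these pools.

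Gene names came from the platform annotation, and all 46 members matched a locus tag in the RefSeq table (TAIR10.1). All members may be named. Values per array are given for the brightest, the 4 highest and 4 lowest by moderated t, the 5 with the smallest p for class, those nearest 88 and those with a known acceptor. UGT71C3, UGT76D1, UGT76E2, UGT85A5 and BGLU19, the change of UGT85A7 and some values per class were added after their values were seen. Of each list of related enzymes, up to 3 genes by moderated t are named, BGLU19 aside. The members, lists and array classes were chosen with earlier results of these data known.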

Additional observations from a re-analysis of the deposited data

How the results depend on the processing

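With group alone, limma called 0 UGT genes under both other scalings, the pseudocount of 32, no filter, the filter at the 60th percentile, plain eBayes, array class as a term and each array left out in turn (0 to 0). Only array weights gave calls, 9 of 25 UGT genes (8 higher, 1 lower), against 2261 of all 13647 tested probe sets (1311 higher, 950 lower). The 1 was UGT76B1, at -1.61 (limma adjusted p = 0.0228), and the 8 were UGT71C1, UGT71C3, UGT72E1, UGT72E2, UGT72E3, UGT73B1, UGT74D1 and UGT85A2, all of which also differed between array classes. Over all probe sets, group alone gave 17 calls with array class as a term and 0 to 10 with an array left out, the 10 without red light 1. With array class, the UGT count was 0 except without dark 2, where UGT76B1 was called (0 to 1). That call sets 1 red light array against 2 dark arrays within the high-ratio class, and the lone array is assumed to vary like the others. The count over all probe sets there was 30 with the pseudocount and 5 with plain eBayes, and 8 to 272 with an array left out (8 without red light 2 and 272 without dark 2, with 9, 71 and 28 when red light 3, red light 1 or dark 3 was dropped). The cause of these shifts was not tested.

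With group alone 11 of 25 tested members kept their sign in every alternative, and with array class 9 of 25. UGT76B1, UGT74D1, UGT73B5, UGT73D1, UGT71C5 and UGT80B1 kept it in both. Between 25 and 26 members had a mean above 88 in the alternatives tried. With an array left out, 8 to 13 of the 25 or 26 tested UGT genes differed between the classes, and 14 of 26 did after quantile scaling. The share of all tested probe sets was counted for the main fit only, where it was 36.8%. Replicate numbers were not taken as pairs. Deviations from the group means correlated at 0.58, 0.64 and -0.32 for numbers 1, 2 and 3. Of the 6 arrays, 4 correlated best with their own number. Both arrays of number 1 were high-ratio and both of number 2 low-ratio, while number 3 had red light low-ratio and dark high-ratio. Pairing and array class thus cannot be told apart by these correlations. With a replicate block in place of array class, limma called 0 UGT genes and 0 of all probe sets (smallest adjusted p of a UGT gene 0.819).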

Other observations

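Further UGT genes were measured under other symbols, or on probe sets of several genes, and so were not members. GT72B1 (UGT72B1), which acts on monolignols and on foreign phenols, had signals of 306.0, 1863.8 and 1630.2 in red light, against 670.7, 1776.2 and 668.0 in the dark. It followed array class like the UGT72E genes, with a difference of -1.96 (limma adjusted p = 0.000365), and its change was 0.075 (SE 0.74) with group alone and -0.58 (SE 0.26) with array class. The sterol glucosyltransferase SGT (UGT80A2) had 436.2, 822.0 and 872.4 in red light, against 413.1, 761.5 and 441.0 in the dark. SGT was lower in the high-ratio class (difference -0.90, limma adjusted p = 0.00659), whereas its relative UGT80B1 was measured 0.72 higher there (limma adjusted p = 0.0558). UF3GT (UGT79B1), of anthocyanin synthesis, had at most 21.8 on any array, and AT5G54010 (UGT79B6) at most 52.7. Among the 3 probe sets of several genes, that of UGT71D1 and AT2G29710 was higher in the high-ratio class (difference 0.75, limma adjusted p = 0.0154). The difference was 0.033 (limma adjusted p = 0.922) for UGT73B2 and UGT73B3. For UGT89B1 and AT1G73885 it was -0.060 (limma adjusted p = 0.882).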
